A study of Mus musculus with 19 samples.

Results

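Extrachromosomal circular DNA (eccDNA) was examined over the genes of the extracellular matrix, the ADAM and ADAMTS proteases and the integrins in the cervical spinal cord of mice with and without amyotrophic lateral sclerosis (ALS). The members were all rows of the deposited gene table whose symbol begins with Col, Lama, Lamb, Lamc, Fbn, Gpc or Mmp and a digit, or with Adam, Ltbp, Fbln, Hapln, Itga or Itgb. This rule found 95 of the 8336 genes in the table. It also takes in *Col4a3bp*, which encodes a ceramide transfer protein, and *Itgb3bp*, which encodes a centromere protein, and neither product belongs to the matrix or to an integrin. The ALS group held 9 male *hSOD1G93A* mice (B6.Cg-Tg(SOD1*G93A)1Gur/J). They constitutively overexpress human *SOD1* with the G93A mutation and were taken at 18 to 21 weeks, when motor symptoms were present. The control group held 10 male C57BL/6J mice matched for age, and every library came from 1 animal. The samples thus show the symptomatic stage of an overexpression model and no course over time.

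The extracellular matrix is built from collagens, which form fibrils, sheets or membrane-bound rods, and from laminins, which polymerize into the basement membranes around vessels, muscle fibres and Schwann cells. Latent TGF-beta binding proteins, fibrillins and fibulins assemble microfibrils that store growth factors, and glypicans are heparan sulfate proteoglycans anchored to the cell surface. ADAM proteases shed membrane proteins, ADAMTS proteases and matrix metalloproteinases cut matrix components, and integrins are the paired alpha and beta chains with which cells hold on to the matrix. In the spinal cord these proteins shape the blood-brain barrier, the perineuronal nets and the contacts of motor axons. The measurements below are of circular DNA cut from these genes and say nothing of their expression.

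Each value is the produced-per-gene eccDNA count (PpGC), for which the authors added the split reads of every eccDNA lying on a gene and scaled the sum by gene length, on the scale log2(PpGC + 1). A split read crosses the junction of a circle, and a value of 0 stands for a gene in which no eccDNA with at least 2 split reads was found. A gene has a row only if at least 1 of the 19 samples had such an eccDNA. Of 187 protein-coding genes in GENCODE release M21 whose symbols fit the rule, 95 had a row, with a median length of 125 kb, and 92 had none, with a median length of 21.2 kb. All 4 hyaluronan link protein genes (Hapln) were among those without a row. The table holds 1 value per gene and sample and no circle positions, so that the place of a circle within its gene was not analysed here.

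ALS samples carried eccDNAs from more matrix, ADAM and integrin genes than controls, by nearly the same ratio as for all genes. Per ALS sample, 18.4 ± 6.91 members (SD, n = 9) had an eccDNA, with a lowest count of 10, a median of 17 and a highest of 30. Per control sample the count was 3.8 ± 3.82 (SD, n = 10), with a lowest of 0 in Control 5, a median of 3 and a highest of 13 in Control 1. Members were above the highest control in 7 of 9 ALS samples, and the groups overlapped through ALS 6 and ALS 9. The ratio of the means was 4.85 for members and 5.35 for all genes, for which ALS samples had 1301 and controls 243 genes with an eccDNA on average. The share of these genes that were members was 1.44 ± 0.315% (SD, n = 9) in ALS and 1.55 ± 1.01% (SD, n = 10) in controls, and the difference, ALS minus controls, of -0.113 percentage points lay within the spread between samples. It turned to 0.593 when only values of at least 8 were counted, and was slightly above 0 without Control 4 or Control 10. The samples of both groups nearest in load were ALS 6, with 11 members among 694 genes, and Control 1, with 13 among 723. Within a group, samples of like load could differ, as ALS 5 had 20 members among 1114 genes and ALS 9 had 10 among 1110. The load of a library and its group therefore went together in nearly all samples, and sequencing depth, which the table does not give, cannot be told apart from the number of circles. The tissue was taken in bulk, so that a change in its cell types and a change in circles per cell cannot be told apart either. In controls the members that were present also had lower values, with a median log2 PpGC of 6.75 ± 0.93 (SD over the 9 control samples with a member) against 8.06 ± 0.41 (SD, n = 9) in ALS samples. Over all genes with an eccDNA the same medians were 8.44 ± 0.60 (SD, n = 10) in controls and 8.75 ± 0.27 (SD, n = 9) in ALS samples.

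**Figure D1:**
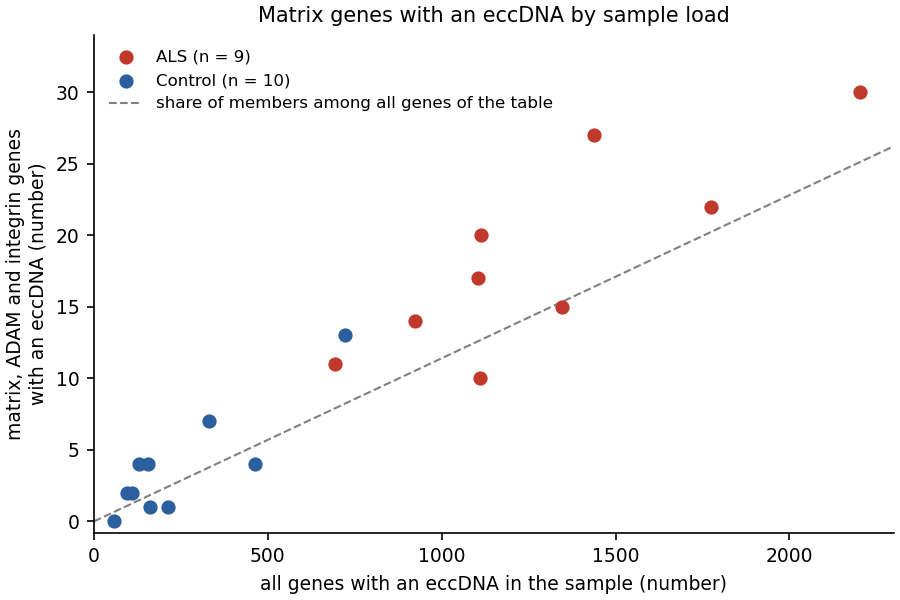
Members with an eccDNA (vertical axis, number of the 95 genes) against all genes with an eccDNA (horizontal axis, number of the 8336 genes) in each sample, with 1 point per sample (9 ALS in red, 10 Control in blue); the dashed line is the share of the members among all genes of the table. The points of both groups follow 1 band, with Control 1 (13 members) beside ALS 6 (11 members).

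Of the 95 members, 3 (3.16%) were higher in ALS under the thresholds of the study's methods, which ask that the group means of log2 PpGC differ by more than 1 and that the methods' t-test, here two-sided, gives a p under 0.01. These were *Ltbp1*, *Adamtsl1* and *Col25a1*. Among all 8336 genes 111 passed, which is 1.33%. The authors' own list of genes higher in ALS is longer under the same stated thresholds. It holds *Adamtsl1*, *Col25a1*, *Adamts2*, *Adamts3*, *Lama2* and *Lama3* but not *Ltbp1*. In the values used here *Adamts2* was not higher in ALS, with a difference of -0.09 (p = 0.942 by the methods' t-test). The same test gave a p of 0.144 for *Lama3*, 0.0280 for *Lama2* and 0.0163 for *Adamts3*. The reason why the lists differ was not tested. No member was lower by the same thresholds, where the background was 0%, and at an unadjusted p under 0.05 the count of lower members was also 0, as it was with limma and the exact permutation test under the first thresholds. At an unadjusted p under 0.05, 8 members (8.42%) were higher, against 4.20% of all genes, and the 5 that join are *Lama2*, *Adamts3*, *Col4a3*, *Col14a1* and *Adamts20*. After Benjamini-Hochberg adjustment of the p of the methods' t-test over all genes only *Ltbp1* stayed under 0.05, against 0.0720% of all genes, and with the exact permutation test no member did, since even the smallest exact p would reach only 0.0902 for 1 gene alone. The mean was higher in ALS for 82 members (86.3%) and for 86.5% of all genes. A gene without an eccDNA in any control, as were 61 members, can only have a higher mean in ALS. The family counts of higher means below are to be read beside this share. The median difference was 1.13 for members and 1.19 for all genes. The members were also longer (median 125 kb against 49.3 kb for all genes), and the calls by length are given further on.

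*Ltbp1* encodes a protein that anchors latent TGF-beta in the matrix, and it was the only member with an eccDNA in all 9 ALS samples. The gene lies on the plus strand of chr17:75005568-75392512 of mm10, is 387 kb long and has 37 exon blocks that cover 2.76% of it. In ALS 1 to 9 the log2 PpGC was 5.15, 7.70, 6.12, 7.43, 5.15, 9.65, 9.17, 5.15 and 6.12. These values stand for 3, 18, 6, 15, 3, 70, 50, 3 and 6 split reads, so that ALS 6 and ALS 7 carried most of the signal and 3 samples lay just above the minimum of 2 split reads. Among controls only Control 1, the library with the most genes with an eccDNA in its group, had a value, of 7.23 from 13 split reads, which lies within the range of the ALS samples. The mean was 6.85 ± 1.73 (SD, n = 9) in ALS and 0.72 ± 2.29 (SD, n = 10) in controls. The difference of 6.12 ± 0.94 (SE) had a two-sided exact permutation p of 7.58e-05, and *Ltbp1* had an adjusted p of 0.0196 by the methods' t-test and an adjusted exact permutation p of 0.199. With the load of each sample (its number of genes with an eccDNA) as covariate, the difference of *Ltbp1* was 6.18 (permutation p = 0.00385 with 100000 resamples). Only 8 genes of the table had an eccDNA in all 9 ALS samples, and *Ltbp1* was the only such gene among the 798 genes between 200 and 500 kb.

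*Ltbp4*, the other family member with a row, is a microfibril protein of lung and muscle and had an eccDNA only in ALS 8, at a log2 PpGC of 8.68 from 3 split reads. Of the 4 annotated Ltbp genes, the other two had no row.

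*Adamtsl1* encodes a secreted relative of the ADAMTS proteases that lacks the protease part. It is the third longest member, with 914 kb on the plus strand of chr4:85514172-86428385 of mm10. In ALS 1 to 9 the log2 PpGC was 9.14, 7.04, 6.30, 3.42, 0, 0, 6.38, 8.51 and 12.36, the last from 1086 split reads. Control 1 had 4.35, Control 10 had 5.76 and the other 8 controls had 0. High values were thus found in ALS 9, ALS 1 and ALS 8, while ALS 5 and ALS 6 were at 0 like most controls, and the groups overlapped. The difference was 4.89 ± 1.49 (SE; ALS 5.91 ± 4.13, SD, n = 9; controls 1.01 ± 2.16, SD, n = 10) with an exact permutation p of 0.00586. With the sample load as covariate it fell to 0.79 (permutation p = 0.767), so that the group and the load cannot be told apart for this gene. The gene overlaps *Sh3gl2*, and both had an eccDNA in ALS 1, 2, 7 and 8, never with the same number of split reads.

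*Adamtsl3*, the other ADAMTS-like member, had values in 2 ALS samples and 1 control, and its difference was 1.29 (exact permutation p = 0.458). With the load as covariate its direction turned, and it was called lower by the p of the fit, without permutation.

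*Col25a1* encodes a membrane-bound collagen that is found in amyloid plaques and that motor axons need to reach muscle during development. It lies on the plus strand of chr3:130131501-130599877 of mm10 and is 468 kb long. ALS 1, 2, 3, 4 and 7 had a log2 PpGC of 5.85, 4.32, 5.60, 8.00 and 5.60, from 6, 2, 5, 27 and 5 split reads. The other 4 ALS samples and all 10 controls were at 0, so the groups overlapped at 0 only. The difference was 3.26 ± 1.02 (SE; ALS 3.26 ± 3.24, SD, n = 9) with an exact permutation p of 0.0108, just above the threshold that the p of the methods' t-test passed. With the load as covariate the difference of *Col25a1* was 1.27 (permutation p = 0.511). *Col23a1*, a membrane collagen of the same family, had an eccDNA in 1 ALS sample.

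**Figure D2:**
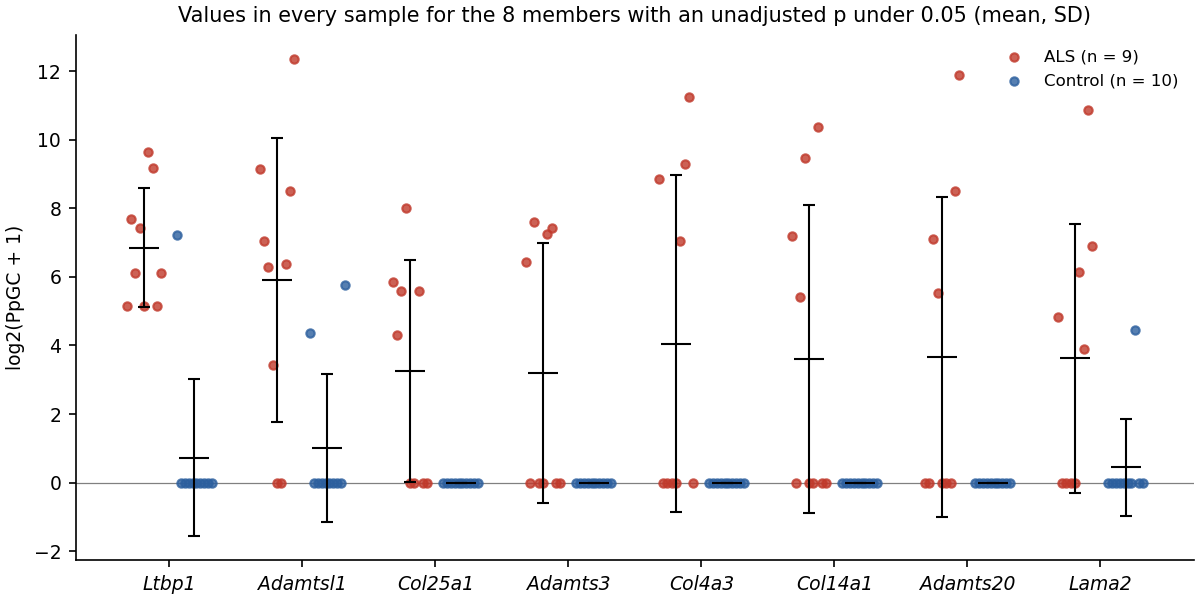
Log2(PpGC + 1) in every sample for the 8 members with an unadjusted p under 0.05 by the methods' t-test, with 1 point per sample (9 ALS in red, 10 Control in blue, spread sideways for sight), the mean as a bar and the SD as the error bar. *Ltbp1* is above 0 in 9 of 9 ALS samples, and every other gene shown has ALS samples at 0.

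Among the collagens, 26 genes in 5 groups had a row. The 6 fibrillar collagen genes, whose products bear tension, all had higher means in ALS, from 0.84 for *Col27a1* to 1.99 for *Col5a1*, with 9 values above 0 in ALS and 1 in controls. Of all genes, 86.5% had higher means, and 5 of these 6 had no eccDNA in any control. *Col11a1*, a collagen of cartilage fibrils, rested on ALS 5 alone, with a log2 PpGC of 15.86 from 2556 split reads. None of the 6 passed the test. *Col24a1*, higher by 1.83, was called lower with the load as covariate, by the p of the fit without permutation.

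Of the 8 basement membrane and network collagen genes, 5 had higher and 3 had lower means in ALS, and none was called. *Col4a3*, a collagen IV chain of kidney and inner ear basement membranes, had a log2 PpGC of 8.85 in ALS 1, 7.05 in ALS 6, 9.29 in ALS 7 and 11.25 in ALS 8, and 0 in the other 5 ALS samples and all controls. Its difference was 4.05 ± 1.55 (SE; exact permutation p = 0.0325). The chains *Col4a1* and *Col4a2*, which are found in nearly all basement membranes, differed by -0.13 and 1.96. *Col4a5* had values in 2 ALS samples and 1 control, and *Col4a6* in 1 ALS sample.

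The 6 fibril-associated collagen genes, whose products sit on the surface of fibrils, were divided, with 4 higher and 2 lower means in ALS. *Col14a1* had a log2 PpGC of 7.20, 5.41, 9.47 and 10.38 in ALS 1, 3, 4 and 7 and 0 elsewhere, and its difference was 3.61 ± 1.42 (SE; exact permutation p = 0.0325). *Col19a1* was the member with an eccDNA in most controls, at 9.47 in Control 1, 4.82 in Control 2 and 7.36 in Control 7, against 9.90 in ALS 5 and 4.82 in ALS 8. Its values overlapped fully, and the difference was -0.53 ± 1.64 (SE; exact permutation p = 0.791), which turned positive without Control 1 or Control 7. The remaining 4 collagen genes, of which *Col6a4*, *Col6a5* and *Col6a6* encode collagen VI chains, all had higher means in ALS, from 1.50 to 2.10, and none was called. Of these 4, 3 had no eccDNA in any control, and 86.5% of all genes had higher means.

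All 5 laminin alpha chain genes had a row, and all 5 had higher means in ALS, with 12 values above 0 in ALS and 2 in controls. Higher means were found for 86.5% of all genes, and 3 of the 5 had no eccDNA in any control. *Lama2* encodes the alpha chain of the laminin around muscle fibres and Schwann cells, and it lies on the minus strand of chr10:26980036-27619758 of mm10 over 640 kb. Its log2 PpGC was 4.84 in ALS 1, 6.14 in ALS 6, 3.89 in ALS 7, 10.87 in ALS 8 and 6.89 in ALS 9, and Control 8 had 4.45. The lowest ALS value above 0 was thus under that of the control, and 4 ALS samples were at 0. The difference was 3.18 ± 1.32 (SE; ALS 3.63 ± 3.93, SD, n = 9; controls 0.44 ± 1.41, SD, n = 10) with an exact permutation p of 0.0263, and it did not pass the threshold of 0.01. *Lama4*, a chain of vessel basement membranes, was highest in Control 2, at 10.75, and had 7.75, 5.96 and 5.96 in ALS 2, 6 and 8. *Lama3*, a chain of epithelial basement membranes, had a value in 2 ALS samples, and its difference was 1.56. That difference was between 0.65 and 1.76 when each sample was left out.

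The fibrillin genes *Fbn1* and *Fbn2* encode the backbone of microfibrils. *Fbn1* had a log2 PpGC of 9.88, 10.86 and 6.03 in ALS 1, 5 and 9 and of 9.01 in Control 1, a difference of 2.07 ± 1.75 (SE; exact permutation p = 0.265). That difference was between 1.09 and 2.97 when each sample was left out. *Fbn2* had values in ALS 2 and ALS 3, and its difference was 1.54, or 0.69 without ALS 2. With the load as covariate the differences turned to -0.90 for *Fbn1* (permutation p = 0.788) and -1.18 for *Fbn2* (permutation p = 0.502). For the fibulins, which link microfibrils to elastic fibres and basement membranes, *Fbln1* had values in 3 ALS samples and no control (difference 3.01, exact permutation p = 0.0867), while *Fbln2* had 1 value, of 7.22 in Control 1 from 2 split reads. The difference of *Fbln1* was 1.94 without ALS 8 and 4.43 with the load as covariate (permutation p = 0.14).

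The glypicans were the family with the longest members, at a median of 696 kb, and 2 of the 4 genes had lower means in ALS. *Gpc5* spans 1433 kb on chr14:115092215-116525179 of mm10 and is the longest member. It had no eccDNA in any ALS sample and a log2 PpGC of 6.96 in Control 6, from 40 split reads. Its neighbour *Gpc6*, 1051 kb long on chr14:116925315-117976544, had 6.68 in ALS 8 and 3.77 in Control 3, a difference of 0.36 ± 0.81 (SE; exact permutation p = 0.737) that turned to -0.38 without ALS 8 and to -0.31 with equal totals per sample. Among 58 genes of the table over 1000 kb the median number of ALS samples with an eccDNA was 7, and *Gpc5* and *Gpc6* were the only 2 with 1 or none, an observation made after their values had been seen and not tested. Both are among 5 such genes on chromosome 14, where the share of genes with an eccDNA varied between ALS libraries (described further on), and the part of that in these 2 values was not tested. *Gpc3*, an X-linked glypican whose loss causes overgrowth, had the highest value of any member, of 17.47 in ALS 8 from 14007 split reads, beside 10.52 in ALS 3 and 6.04 in ALS 7. Its difference was 3.78 ± 2.01 (SE, exact permutation p = 0.0867), and it turned to -1.69 with the load as covariate (permutation p = 0.637). Without ALS 8 the difference of *Gpc3* was 2.07. The adjacent *Gpc4* was at 0 in all ALS samples and at 13.44 in Control 1.

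**Figure D3:**
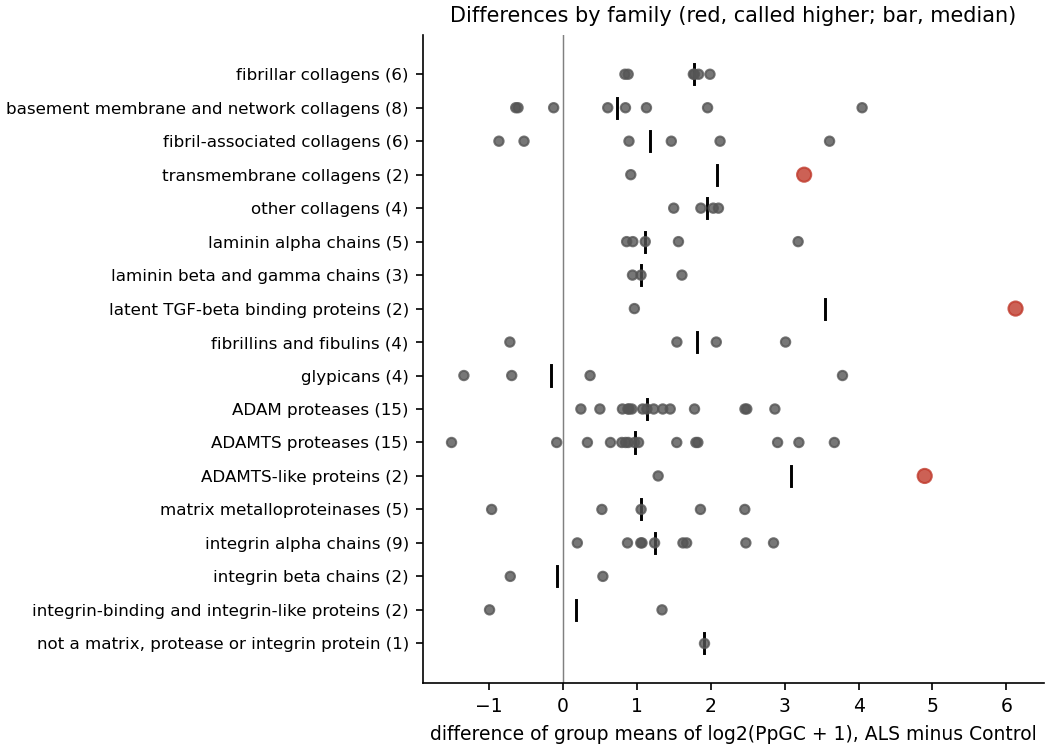
Difference of mean log2(PpGC + 1), ALS minus Control (horizontal axis), for each of the 95 members by family, with the number of members in parentheses, the family median as a black bar and the 3 members called higher in red. Most points lie between 0 and 3, and the differences run from -1.51 (*Adamts10*) to 6.12 (*Ltbp1*).

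All 15 ADAM genes with a row had higher means in ALS, from 0.24 to 2.87, and none was called. Of all genes, 86.5% had higher means. For 12 of the 15 no control had an eccDNA, so that their mean could only be higher in ALS. An eccDNA was found in 1 sample only for 10 of the 15, where 66.2% of all genes had one in 1 sample only. *Adam10*, the sheddase that cleaves Notch and the amyloid precursor protein, had 1 value, of 16.01 in ALS 2 from 1503 split reads. *Adam19* had the largest difference, of 2.87 ± 1.81 (SE; exact permutation p = 0.211), from ALS 2 and ALS 9. *Adam22*, a synaptic receptor without protease activity, had 11.52, 7.24 and 8.95 in ALS 2, 6 and 7 and 5.93 in Control 4 (difference 2.49, exact permutation p = 0.141). *Adam12* was balanced, with 6.49 in ALS 3 and in ALS 8 and 6.01 in Control 2 and in Control 9. Its difference was 0.24 (exact permutation p = 0.652), which turned to -3.79 with the load as covariate (permutation p = 0.0880).

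Of the 15 ADAMTS genes, 13 had higher and 2 had lower means in ALS, and none was called. *Adamts3*, which trims procollagen and activates a lymphatic growth factor, had a log2 PpGC of 6.44, 7.60, 7.24 and 7.43 in ALS 1, 3, 6 and 7, the narrowest range among the members with 4 ALS samples and no control. *Adamts20*, a protease of melanoblast development, had 7.10, 5.54, 8.51 and 11.90 in ALS 3, 4, 8 and 9. The differences were 3.19 for *Adamts3* and 3.67 for *Adamts20*, each with an exact permutation p of 0.0325. *Adamts3* was called when ALS 2, 4, 5, 8 or 9 was left out. *Adamts18* had values in 4 ALS samples and 1 control (difference 2.90, exact permutation p = 0.0759). The most negative difference of any member was that of *Adamts10*, a microfibril-associated protease, at -1.51 ± 1.60 (SE; exact permutation p = 1), and it rested on Control 4 alone, at 15.11.

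Among the 5 matrix metalloproteinase genes with a row, 4 had higher means in ALS, and none was called. *Mmp2*, which degrades basement membrane collagen, had 9.41 in ALS 3, 8.41 in ALS 5 and 14.56 in Control 1, where 142 split reads were found. Its difference was 0.52 ± 1.98 (SE, exact permutation p = 0.861), and it turned to -6.58 with the load as covariate (permutation p = 0.0623). *Mmp16*, a membrane-bound metalloproteinase, had 8.15, 8.31 and 5.67 in ALS 1, 3 and 5 and 0 in all controls (difference 2.46, exact permutation p = 0.0867).

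All 9 integrin alpha genes with a row had higher means in ALS, with 14 values above 0 in ALS and 2 in controls, and none was called. Higher means were found for 86.5% of all genes, and 7 of the 9 had no eccDNA in any control. *Itga1*, the alpha chain of a collagen receptor, had 7.49, 9.54 and 8.60 in ALS 2, 5 and 8. *Itga9*, the alpha chain of a tenascin receptor, had 7.51, 6.25 and 8.50 in ALS 3, 5 and 8. Their differences were 2.85 for *Itga1* and 2.47 for *Itga9*, each with an exact permutation p of 0.0867. The beta chains were fewer and showed no common direction. *Itgb6* had 10.51 and 6.75 in ALS 5 and 7 and 13.81 in Control 1, and *Itgb3* had 1 value, in a control. The 2 genes of integrin-like or integrin-binding proteins each had a single value, *Itgbl1* in ALS and *Itgb3bp* in Control 8, at 9.96.

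For matrix genes outside the symbol rule, a list of 98 related symbols was read from the same fit, and 37 of them had a row. Of these 37, 32 had higher and 5 had lower means in ALS, where 86.5% of all genes had higher means. The median difference was 1.07 against 1.19 for all genes. Called higher were 2, against 1.33% of all genes, and both are long, *Fras1* with 411 kb and *Sgcz* with 1139 kb, in length classes where 5.39% and 24.1% of all genes were called. *Fras1*, a basement membrane protein of the skin, was found on circles of 5 ALS samples and of no control (difference 3.35, exact permutation p = 0.0108). *Sgcz*, a sarcoglycan of the dystrophin complex, had one in 7 ALS samples and 1 control (difference 4.42, exact permutation p = 0.0168). The perineuronal net and hyaluronan group had 5 genes with a row (*Cd44*, *Ptprz1*, *Tnc*, *Tnr* and *Vcan*) and none called.

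An eccDNA was present in 3 or more samples for 28 members (29.5%, against 15.3% of all genes) and in 1 sample only for 45 (47.4%, against 66.2%). The members are longer, so that these shares are not of genes of like length. From 100 to 200 kb, 14 of 31 members and 571 of 1330 genes had an eccDNA in 1 sample only. From 200 to 500 kb these counts were 4 of 25 and 110 of 798. It was absent from all controls for 61 members (64.2%, against 75.0% of all genes) and absent from all ALS samples for 10 members (10.5%, against 10.9% of all genes). In 2 or more controls, 3 members (3.16%, against 3.01% of all genes) had an eccDNA, which were *Adam12*, *Adamtsl1* and *Col19a1*. The median GC content of members was 42.7% against 43.3% for all genes, and the median share of repeats was 23.6% against 25.1%.

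**Figure D4:**
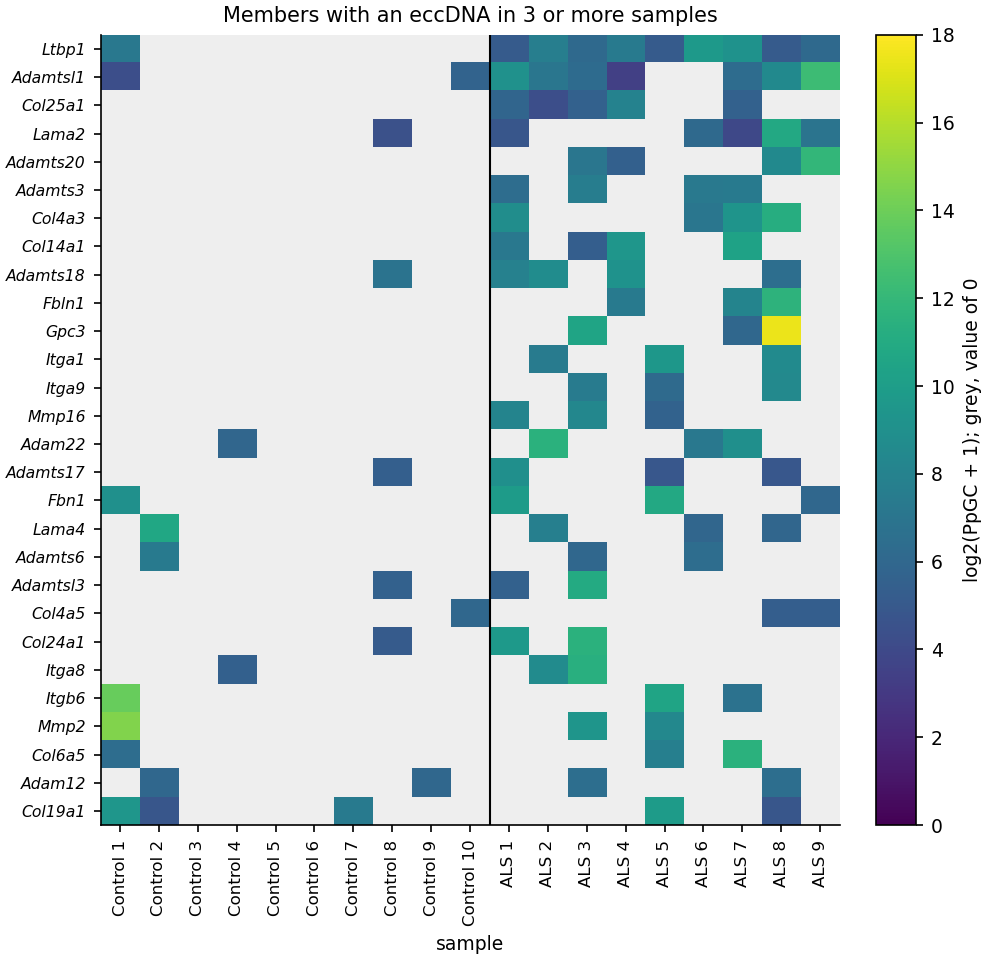
Log2(PpGC + 1) by colour for the 28 members with an eccDNA in 3 or more samples (rows) in each of the 19 samples (columns), with values of 0 in grey and controls left of the line. *Ltbp1* fills all 9 ALS columns, and most control cells are grey.

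Within length classes, the members' averages lay close to those of all genes up to 500 kb and below them above it, with no test made. In genes of up to 50 kb, members had an eccDNA in 1.00 ALS samples on average and all genes in 0.941. From 100 to 200 kb the averages were 1.61 and 1.60, and from 200 to 500 kb they were 2.60 and 2.74. Above 500 kb the 4 members averaged 3.25 ALS samples against 5.07 for all 232 genes, through *Gpc5* and *Gpc6*. Called genes followed length too. No member up to 200 kb was called, where the share of all genes called was 0% up to 50 kb, 0.181% from 50 to 100 kb and 0.602% from 100 to 200 kb. Of the longer members, 2 of 25 (8%) between 200 and 500 kb were called, against 5.39% of all genes, and 1 of 4 (25%) above 500 kb, against 24.1%. Over the 95 members gene length and the number of ALS samples with an eccDNA had a Spearman rho of 0.505, and over the 8088 placed genes it was 0.519, where genes share libraries and are not independent.

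**Figure D5:**
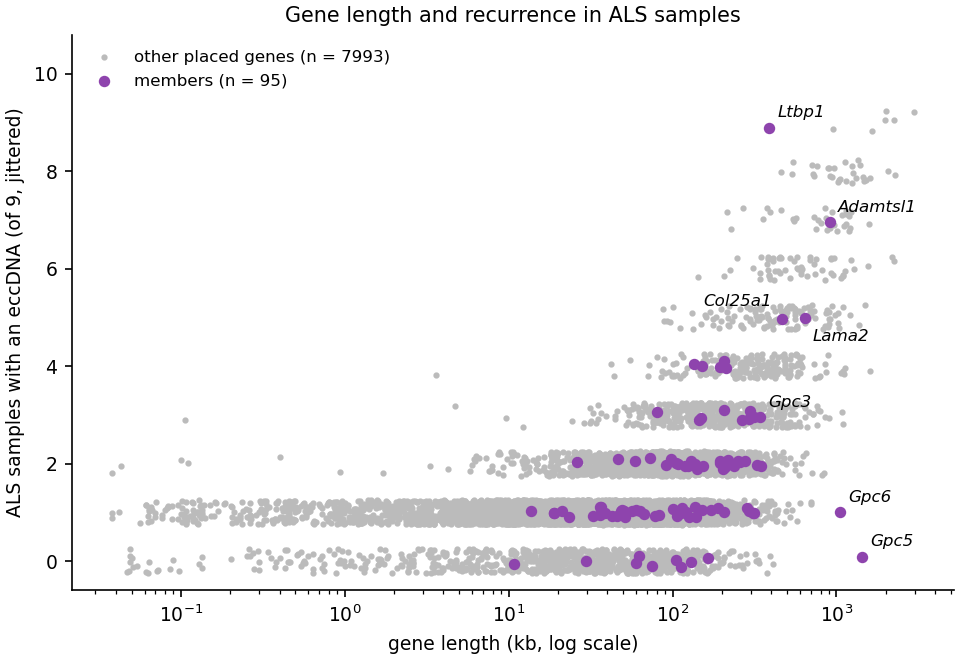
Number of ALS samples with an eccDNA (vertical axis, of 9, jittered) against gene length (horizontal axis, kb, log scale) for the 95 members in purple and the other placed genes in grey. *Ltbp1* stands above genes of its length with 9 samples, and *Gpc5* (0 samples) and *Gpc6* (1 sample) stand below theirs.

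The 204 member values above 0 (166 in ALS and 38 in controls) rested on few reads. Divided by the length factor, all 204 came out as whole numbers of split reads within a tolerance of 0.02, with a median of 8 (9 in ALS and 4 in controls), and 81 values had 5 or fewer. The 5 values above 1000 split reads were those of *Gpc3*, *Adamts9*, *Col11a1*, *Adam10* and *Adamtsl1*, each in another ALS sample. For *Adamts9*, the second of these, ALS 4 alone carried 2843 split reads. As 22 of the 204 values were in a sample where an overlapping gene of the table also had an eccDNA, part of the reads may count for both genes. Rolling circle amplification copies circles before sequencing, so that split reads are not independent molecules.

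Of 20 pairs of members within 1000 kb of each other, 7 had an eccDNA in the same sample and 13 did not. *Adam32* and *Adam9*, 0.806 kb apart, and *Col4a5* and *Col4a6*, 1.31 kb apart, shared none. *Col4a3* and *Col4a4*, which lie head to head, shared ALS 1, and *Col4a1* and *Col4a2* shared ALS 2. The 3 collagen VI genes side by side on chromosome 9 all had an eccDNA in ALS 5. In none of the shared samples did the neighbours have the same number of split reads.

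The share of genes with an eccDNA that fell on a chromosome varied between libraries of both groups for some chromosomes. On 10 chromosomes (1, 10 to 16, 18 and X) the chi-square of that share over the 9 ALS samples, divided by its degrees of freedom, was between 4.47 and 20.5, and on the other 10 it was between 0.39 and 2.04. Over the 10 controls, which had fewer genes, the same measure was between 3.12 and 6.30 on chromosomes 1, 10, 11, 12, 15 and 18, between 0.72 and 2.00 on chromosomes 13, 14, 16 and X, and between 0.38 and 1.76 on the rest. The first set held 39 members, among them *Lama2*, *Col4a3*, *Col14a1*, *Adamts20* and all 4 glypicans. The second held 56 members, among them *Ltbp1*, *Adamtsl1*, *Col25a1* and *Adamts3*. A restriction taken from an earlier analysis of these data, to chromosomes 2 to 9 and X, called 2 of 57 members (*Adamtsl1* and *Col25a1*) against 1.48% of the genes there. It keeps X, which varied, and leaves out chromosome 19 and, with *Ltbp1*, chromosome 17, which varied little.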

How the data were processed

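DNA of each cervical spinal cord (400 ng) was digested with exonuclease V for 7 days, amplified by rolling circle amplification for 48 h and sequenced in paired ends. The authors called circles with Circle_Finder on mm10, merged those under 10 bp apart, required 2 split reads, intersected them with GENCODE genes (release not given in the sources used here) with bedtools, summed split reads per gene, scaled them by gene length and deposited log2(PpGC + 1) values, which are not scaled between samples. These log2 values were used as deposited. All 95 members were placed by name in GENCODE M21.

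Each gene had the methods' t-test, two-sided, over 9 ALS and 10 control samples, as the methods state the thresholds, with Benjamini-Hochberg adjustment over all 8336 genes. Single genes had an exact permutation test over 92378 splits. For the members named by the rule below, the load covariate was tested by permuting residuals (100000 resamples, seed 20). Calls over all genes with this covariate, *Adamtsl3* and *Col24a1* among them, used the p of the fit without permutation. The fit was tested on simulated data. Members and lists were chosen with earlier results of these data known. Named were the members *Ltbp1*, *Col25a1*, *Adamtsl1*, *Gpc6*, *Lama2* and *Lama3*, those called, those in 5 or more ALS samples, the 5 first in number of controls with an eccDNA (3 had 2 or more, and ties at 1 were broken by the control mean), the 3 most negative, and the Ltbp, Fbn, Fbln, Gpc and Hapln families. Other names were added after their values were seen. Some members are not reported here by name. Alternatives were limma, exact p, adjusted p, a replicate block, the load covariate, equal totals, unscaled split reads, presence or absence, a pseudocount of 100, genes in at least 3 samples, chromosomes 2 to 9 and X, a log2 PpGC of at least 8 and leaving out each sample. Replicate numbers were shared by both groups, and the labels do not say whether they mark related animals. Split reads on genes ranged from 3583 to 391394 per library. Read depth was not in the table, and the paper gives only its average over libraries. Python 3.11.15, NumPy 2.4.6, pandas 2.3.3, SciPy 1.17.1, matplotlib 3.10.9, R 4.3.3 and limma 3.58.1 were used.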

Additional observations from a re-analysis of the deposited data

Results flagged for a closer look

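Values far from the rest of their group were looked for by their spacing (Dixon's ratio) in the 19 members named by the rule and in the sums over members. Chance flags about 1 in 20 groups of normally distributed values, and this rate does not hold here, since a group with a single value above 0 is always picked. For genes, 13 values stood apart, 12 of them the only value above 0 in their group, so that they show where a lone value lies and no more. In the ALS group these were *Col19a1* in ALS 5 (log2 PpGC 9.90), *Gpc6* in ALS 8 (6.68) and *Ltbp4* in ALS 8 (8.68). In the control group, Control 1 stood apart for *Fbln2* (7.22), *Fbn1* (9.01), *Gpc4* (13.44), *Ltbp1* (7.23) and *Mmp2* (14.56). Control 8 did so for *Itgb3bp* (9.96) and *Lama2* (4.45), Control 4 for *Adamts10* (15.11), Control 6 for *Gpc5* (6.96) and Control 3 for *Gpc6* (3.77). In every one of these control cases the other 9 controls were at 0. The sum of split reads over all members also stood apart in ALS 8 (15182, of which 14007 were on *Gpc3*) and in Control 1 (942).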

How the results depend on the processing

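*Ltbp1* was called under the alternatives listed here, with the unadjusted exact p among them. It was not called with an exact p adjusted over all genes (0.199), and its chromosome 17 is left out where genes were limited to chromosomes 2 to 9 and X. The number of members called higher, 3 as reported, was 1 with the sample load as covariate, with a pseudocount of 100, with presence or absence and with an adjusted p under 0.05, and that gene was *Ltbp1* each time; the share of all genes called was 0.312%, 0.108%, 0.684% and 0.0720%. It was 4 with limma (with *Col4a3*, against 1.99% of all genes), 2 with the exact permutation p (0.816%) and 2 with the replicate block (0.648%). Among genes with an eccDNA in 3 or more samples it was 3 of 28 members, against 8.70% of all such genes. It was between 2 and 4 when each sample was left out (1.02% to 1.60% of all genes), with *Adamts3* gained without ALS 2, 4, 5, 8 or 9. By the p of the fit without permutation, the covariate called 2 members lower (*Adamtsl3* and *Col24a1*), against 1.01% of all genes, and the cause was not tested. When each sample was left out, no member was called lower.

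*Adamtsl1* was no longer called with the load (0.79), a pseudocount of 100 (1.44) or presence or absence (a difference of 0.578 in the share of samples). *Col25a1* was not called with the exact p or the replicate block (3.26 in both), the load (1.27), a pseudocount of 100 (0.43), presence or absence (0.556) or without the fullest library of each group (2.97, ALS 3 and Control 1, an alternative chosen after seeing the data). Left out 1 at a time, samples gave differences between 2.67 and 3.67 for *Col25a1*, whose call was lost without ALS 1, 2, 3 or 7. For *Adamtsl1* they gave 4.09 to 5.63.

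Differences that were not called changed sign as follows. With the load as covariate, *Adam12* was -3.79, *Fbn1* -0.90, *Fbn2* -1.18, *Gpc3* -1.69 and *Mmp2* -6.58. Their permutation p with the covariate were 0.0880, 0.788, 0.502, 0.637 and 0.0623, in that order. With equal totals per sample, *Adam12* was -0.72 and *Gpc6* -0.31. *Mmp2* was -0.28 without length scaling and -0.23 with a pseudocount of 100. Without the fullest library of each group, *Adam12* was -0.52 and *Col19a1* 0.49. Leaving out each sample gave -0.39 to 0.77 for *Adam12*, -1.56 to 0.28 for *Col19a1* (positive without Control 1 or Control 7), -0.38 to 0.74 for *Gpc6* and -0.40 to 1.98 for *Mmp2*. The difference in the share of genes that are members was 0.593 percentage points at a log2 PpGC of at least 8 and -0.212 on chromosomes 2 to 9 and X.

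The labels do not say whether the replicate numbers pair the samples. Same-numbered deviations correlated between -0.0205 and 0.0226 over 9 pairs, and 2 of 9 ALS samples correlated best with their own number. As 91.1% of the values are 0, these correlations cannot tell whether samples were paired. With the replicate block the difference of *Ltbp1* was 6.04. Limits are the few split reads behind most values, the unknown read depth of each library and the amplification of circles. Another limit is the load, which goes with the group.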
